A study of Mus musculus and Homo sapiens with 26 samples.

Results

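The miR-29 family of P19 mouse embryonic carcinoma cells is the subject here, read as the 7 strands named mmu-miR-29a-3p, mmu-miR-29b-3p, mmu-miR-29c-3p, mmu-miR-29a-5p, mmu-miR-29b-1-5p, mmu-miR-29b-2-5p and mmu-miR-29c-5p (written without mmu below). All 7 were chosen by name out of 1396 miRNA names used in the P19 tables, and 6 human miR-29 rows were read in the same way out of 1080 names in a HEK293T table. P19 is a line grown from a mouse teratocarcinoma, and 3 genotypes were sequenced as small RNA. WT cells carried Dicer (+/+), HetKO cells carried Dicer (+/-) with 1 allele truncated by CRISPR, and HM cells carried Dicer (HM/-), in which the remaining allele of the HetKO line bears the hotspot change E1797G in the RNase IIIb domain. HetKO was a clonal line and HM was derived from it, so HetKO and HM each stand for an edited line and not for independent edits. Total RNA gave 6 libraries per genotype (biological replicates in the labels), and RNA pulled down with the Argonaute protein AGO2 (AGO2 IP) was read in 2 libraries of WT and 4 of HM cells. HEK293T human embryonic kidney cells lacking Dicer (-/-) gave 1 library after overexpression of WT Dicer and 1 after overexpression of D1320A, a change in the RNase IIIa domain.

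A miRNA is cut from a hairpin precursor by Dicer, whose RNase IIIa domain cuts the 3p arm and whose RNase IIIb domain cuts the 5p arm, and an Argonaute protein such as AGO2 keeps one strand of the duplex, the guide, while the other, the passenger, is discarded. The miR-29 family uses its 3p strands as guides. It is known for repressing the de novo DNA methyltransferases DNMT3A and DNMT3B and many collagens and other matrix proteins.

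The guides are shown because they share 1 seed (bases 2 to 8, in capitals), the part that chiefly selects targets, and differ in the bases after it. Sequences and positions are from RefSeq on GRCm38.p6, where all 7 names were found, and the build behind the deposited tables is not given in the sources used here.
miR-29a-3p: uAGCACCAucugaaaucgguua
miR-29b-3p: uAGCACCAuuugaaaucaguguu
miR-29c-3p: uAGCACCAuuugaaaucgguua
Of 1679 mouse mature miRNAs searched, only these 3 hold the seed AGCACCA. Counted from 1 at the 5′ end of miR-29a-3p, miR-29c-3p differs from it by C10U alone over 22 positions. miR-29b-3p differs from miR-29a-3p by C10U, G18A, U21G and A22U, and miR-29c-3p differs from miR-29b-3p by A18G, G21U and U22A. How reads with an error at that 1 base were divided between miR-29a-3p and miR-29c-3p is not given in the sources used here.

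The passenger strands are printed for comparison, since they begin with different bases and share no seed between all of them.
miR-29a-5p: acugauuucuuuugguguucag
miR-29b-1-5p: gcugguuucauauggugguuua
miR-29b-2-5p: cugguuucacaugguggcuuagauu
miR-29c-5p: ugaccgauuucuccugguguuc
The family comes from 4 hairpins in 2 pairs. Mir29a (chr6:31062660-31062747, minus strand, within no other annotated gene) lies 275 bases from Mir29b-1 (chr6:31063023-31063093, minus strand, in an exon of the lincRNA Gm27019). Mir29b-2 (chr1:195037040-195037120) lies 426 bases from Mir29c (chr1:195037547-195037634), both on the plus strand in exons of A330023F24Rik and opposite an exon of the complement regulator gene Cd46 (GENCODE vM21). miR-29b-3p has the same sequence from Mir29b-1 and Mir29b-2, so its reads cannot be assigned to 1 of the 2 pairs, whereas miR-29a-3p reports on the chromosome 6 pair and miR-29c-3p on the chromosome 1 pair.

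The values for total RNA are a spike-in normalised signal, in which 1 read was worth 0.280 to 0.406 signal units. Those for AGO2 IP are RPM, which the authors normalised to total miRNA. The names used here summed to 832586 and 822326 RPM in the WT and 975456 to 977911 RPM in the HM AGO2 IP libraries, so these sums were unequal between genotypes. Reads recovered from these values ranged from 2765262 to 2990749 per WT, 2542691 to 3246326 per HetKO and 1530466 to 1702756 per HM total RNA library, and from 4476845 to 5889717 per AGO2 IP library. As a check of the labels, the share of 5p-miRNAs in the 5p and 3p signal was 51.9% ± 0.853 for WT, 51.9% ± 0.132 for HetKO and 1.11% ± 0.304 for HM libraries (SD, n = 6 each). All 8 miRNAs listed as pluripotency markers, among them miR-294-3p, miR-295-3p and miR-302b-3p, were read in each genotype, with a summed signal of 84877 to 95312 in WT, 75106 to 94528 in HetKO and 60975 to 88206 in HM. Markers of other tissues were low but none was at 0 in a genotype. The liver marker miR-122-5p had 20.6 to 130.4, 23.7 to 60.6 and 21.3 to 79.9 in WT, HetKO and HM, and the 3 blood names summed to 133.3 to 507.7, 59.5 to 111.8 and 78.9 to 176.6. The blood list holds a 5p strand, miR-142a-5p, with means of 137.4, 41.2 and 1.41, so its sum also carries the low 5p signal of HM. The 3 muscle names summed to 182.5 to 842.5, 136.2 to 468.4 and 404.0 to 642.5, and the neuronal marker miR-124-3p had 45.6 to 134.3, 95.7 to 155.4 and 30.9 to 66.0. The part of these markers in the results was not tested. In bulk RNA, fewer cells holding a strand and less of it per cell cannot be told apart.

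In WT cells, miR-29a-3p was the most abundant of the 3 guides. Its signal in replicates 1 to 6 was 8225, 10517, 8341, 10848, 10177 and 9123 in WT, a mean of 9539 ± 1132 (SD, n = 6). In HetKO it was 11240, 9472, 7485, 10641, 9377 and 6824, with a mean of 9173 ± 1728. In HM it was 12486, 15425, 15975, 13654, 13327 and 12706, with a mean of 13929 ± 1445. Every HM library was above every WT and every HetKO library, and HetKO overlapped WT.

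miR-29c-3p moved the other way. Its signal was 4131, 5651, 5666, 5299, 5734 and 6153 in WT (mean 5439 ± 696, n = 6) and 5873, 6077, 5989, 5672, 6405 and 5393 in HetKO (mean 5902 ± 347). In HM it was 1441, 1742, 1735, 1700, 1792 and 1690 (mean 1683, range 1441 to 1792). The highest HM library was under the lowest WT and HetKO library, and the HM mean was 31.0% of the WT mean.

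miR-29b-3p, the guide shared by both hairpin pairs, overlapped between all 3 genotypes. It was 4100, 4001, 4352, 4153, 4069 and 4432 in WT (mean 4184 ± 169.9), 5026, 4404, 3495, 3485, 4043 and 3326 in HetKO (mean 3963 ± 661) and 3690, 4904, 4165, 3570, 4820 and 2219 in HM (mean 3895 ± 990.4). HM replicate 6 was the lowest of all 18 libraries. The strands are nearly equal in length, so levels can be set side by side, although reading efficiency may differ between sequences. The order in HetKO was miR-29a-3p, then miR-29c-3p, then miR-29b-3p, with no overlap between neighbours. In WT it was the same, but the ranges of miR-29c-3p and miR-29b-3p overlapped. In HM the order was miR-29a-3p, miR-29b-3p, miR-29c-3p, again with no overlap.

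**Figure D1:**
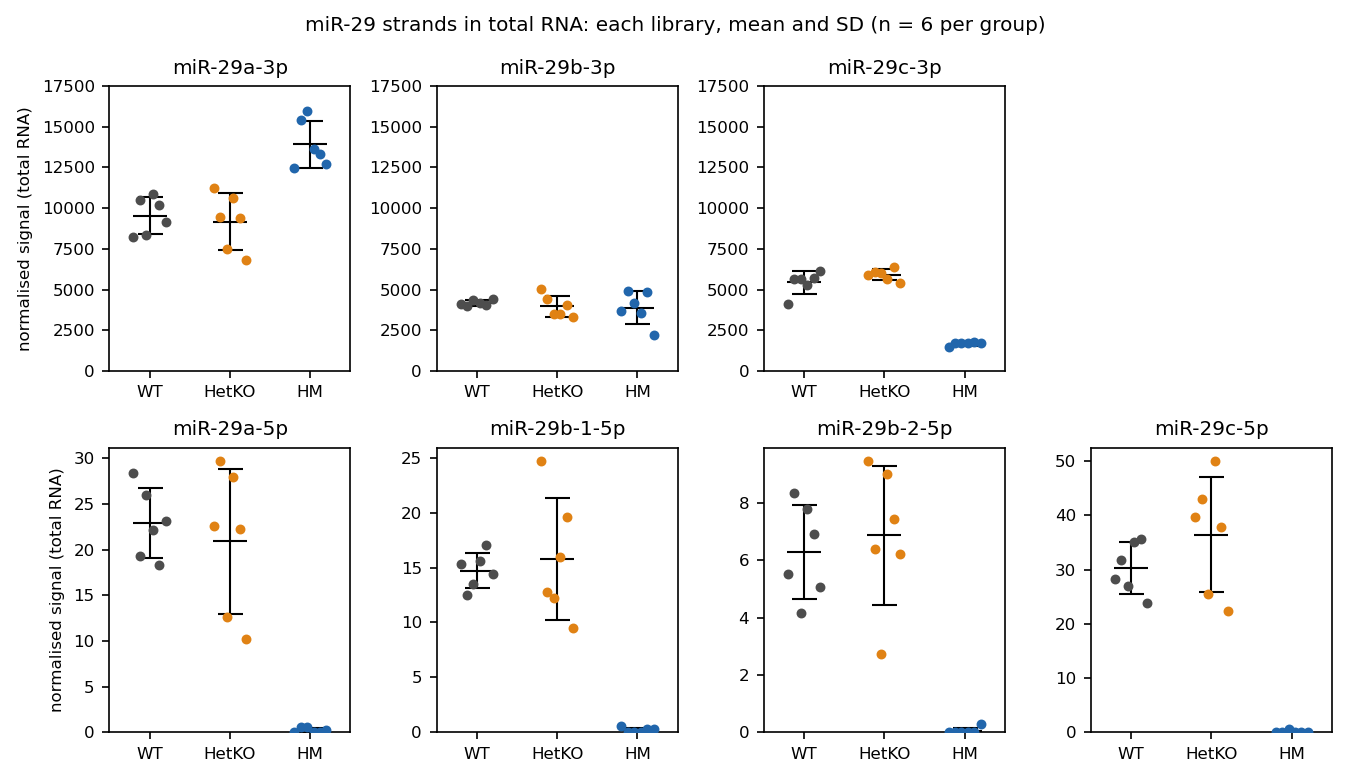
Normalised signal in total RNA (vertical axes, linear, from 0) of each miR-29 strand in every WT, HetKO and HM library (points), with the mean and SD (bars, n = 6). miR-29a-3p was higher in all HM libraries (12486 to 15975), miR-29c-3p was lower (1441 to 1792), miR-29b-3p overlapped, and the 4 5p strands were at 0 to 0.611 in HM.

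The comparison of HM with WT covers both arms. The lines differ by the lost allele, the hotspot change and the cloning, which cannot be told apart here. The comparison was tested with limma on log2(signal + 1) over the 415 miRNAs with a mean of at least 10, with Benjamini-Hochberg adjustment over all of them. miR-29a-3p was higher by 0.55 on the log2 scale (SE 0.13, limma adjusted p = 0.00124, 1.46-fold by means). miR-29c-3p was lower, with a log2 change of -1.68 (SE 0.13, limma adjusted p = 7.72e-09). miR-29b-3p had a log2 change of -0.15 (SE 0.18, limma adjusted p = 0.460) and was not called. Among all miRNAs tested, 22.9% were called higher and 59.3% lower, and among the 64 guide 3p-miRNAs, strands with over 70% of their duplex and a signal over 100 in WT, 12.5% were higher and 48.4% lower. miR-29a-3p is thus 1 of 8 guide 3p-miRNAs called higher and miR-29c-3p 1 of 31 called lower. The median log2 change of the 64 guides was -0.40, with 5 guides above miR-29a-3p and 6 below miR-29c-3p.

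Within the replicates that deviated together in WT and HetKO (1 and 4, 2 and 5, 3 and 6), the log2 change of miR-29a-3p was 0.47, 0.47 and 0.71 and that of miR-29c-3p was -1.58, -1.69 and -1.79. miR-29b-3p gave -0.19, 0.27 and -0.53, so its direction was not stable. The labels name no batch for these numbers. The call for miR-29b-3p also depended on the scale. The median log2 change of all miRNAs was -1.10 on the deposited scale, 0.25 after rescaling each library to the same total and -0.62 after centring on guide 3p-miRNAs. Rescaling removed the difference in summed signal that the spike-in keeps, at most 549949 in an HM library and at least 946824 in a WT library. It left 195 of 414 miRNAs called higher. Among them was miR-29b-3p (0.96, limma adjusted p = 4.06e-05), while miR-29a-3p stayed higher (1.66) and miR-29c-3p stayed lower (-0.57, limma adjusted p = 0.000263).

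HetKO against WT is the control for loss of 1 allele together with the cloning of HetKO, which cannot be told apart here. Of 6 strands that passed the filter, limma called 0, and 0 had an unadjusted p under 0.05. limma-voom on recovered reads also called 0. The background there was 4.39% higher and 22.9% lower over all miRNAs tested, and 0% higher and 20.3% lower over guide 3p-miRNAs. The log2 changes were -0.070 (SE 0.14) for miR-29a-3p, -0.093 (SE 0.11) for miR-29b-3p and 0.13 (SE 0.10) for miR-29c-3p. They were -0.20 (SE 0.24) for miR-29a-5p, 0.037 (SE 0.19) for miR-29b-1-5p and 0.22 (SE 0.19) for miR-29c-5p. After centring on guide 3p-miRNAs, miR-29a-3p, miR-29c-3p and miR-29c-5p were called higher in HetKO (0.28, 0.48 and 0.57). Centring moved the median log2 change over all miRNAs tested from -0.12 to 0.23. It raised the number called higher among them from 19 to 156. These 3 calls thus came with a shift of the whole scale and do not by themselves show a rise particular to miR-29. A rank among guides does not change with such a shift. Of the 64 guide 3p-miRNAs (median log2 change -0.12), 5 lay above miR-29c-3p, 28 above miR-29a-3p and 30 above miR-29b-3p. Whether miR-29c-3p rose relative to the other guides was not tested.

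HM against HetKO, its parent line, asks what the hotspot allele and the cloning of HM add to the lost allele. The same HM libraries as above were used. miR-29a-3p was higher by 0.62 (SE 0.16, limma adjusted p = 0.00189), miR-29c-3p had a log2 change of -1.81 (SE 0.13, limma adjusted p = 5.56e-10) and miR-29b-3p one of -0.056 (SE 0.20, limma adjusted p = 0.801). In this comparison 29.6% of 395 miRNAs were called higher and 55.2% lower. Among the guide 3p-miRNAs 28.1% were higher and 39.1% lower, with 13 guides above miR-29a-3p and 4 below miR-29c-3p. Within the replicate pairs the log2 change of miR-29a-3p was 0.26, 0.61 and 1.00, and that of miR-29c-3p was -1.88, -1.82 and -1.73.

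**Figure D2:**
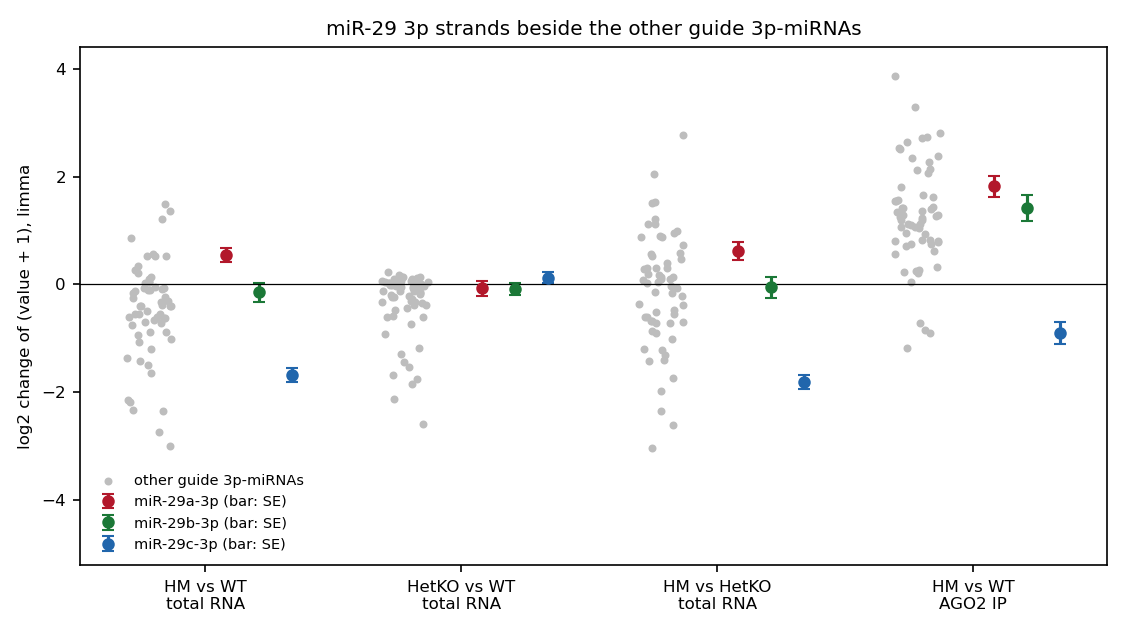
Log2 change of (value + 1) from limma (vertical axis) in 4 comparisons (horizontal axis) for the miR-29 3p strands (coloured points, bars are SE) and for the other guide 3p-miRNAs (grey points, 1 per miRNA, without error bars). miR-29a-3p lay above and miR-29c-3p below 0 in the 3 comparisons with HM, and all 3 strands lay near 0 in HetKO vs WT.

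A ratio of 2 strands within a library does not depend on the scaling, so the 3 guides were also compared pairwise, with two-sided exact permutation tests (15 ratio tests in total RNA, smallest possible p = 0.00216 with 6 against 6 libraries). Between miR-29a-3p and miR-29c-3p the log2 ratio was 0.81 ± 0.21 in the WT libraries, 0.62 ± 0.27 in the HetKO libraries and 3.05 ± 0.13 in the HM libraries (SD, n = 6 each). HM exceeded WT by 2.23 (exact permutation p = 0.00216, adjusted p = 0.00361) and HetKO by 2.43 (exact permutation p = 0.00216, adjusted p = 0.00361). All ratio tests in total RNA took the 6 libraries of a genotype as independent. In WT, however, this log2 ratio was close within replicates 1 and 4 (0.99 and 1.03), 2 and 5 (0.90 and 0.83) and 3 and 6 (0.56 and 0.57). The ratios were not tested on means of these pairs, so their p-values may be too small. In each of the 6 HM libraries the log2 ratio was at least 2.89, against at most 1.03 in WT and 0.94 in HetKO. HetKO and WT differed by -0.20 (exact permutation p = 0.184, adjusted p = 0.230), less than the spread between libraries. The ratio was nevertheless lower in HetKO in 6 of 6 same-numbered pairs of libraries (HetKO minus WT -0.28 to -0.057). Whether a number marks a shared culture or batch is not given in the labels, so this test cannot decide whether the ratio differed.

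miR-29b-3p took an intermediate place. For miR-29b-3p over miR-29c-3p, WT cells had -0.37 ± 0.19, HetKO cells -0.59 ± 0.21 and HM cells 1.17 ± 0.41. HM exceeded WT by 1.53 and HetKO by 1.76 (exact permutation p = 0.00216, adjusted p = 0.00361 for both, n = 6 each). It was below 0 in all 6 WT libraries and all 6 HetKO libraries and above 0 in all 6 HM libraries. For miR-29a-3p over miR-29b-3p, WT cells had 1.18 ± 0.21, HetKO cells 1.20 ± 0.21 and HM cells 1.88 ± 0.36, higher than in WT by 0.70 (exact permutation p = 0.00216, adjusted p = 0.00361) and than in HetKO by 0.67 (exact permutation p = 0.00433, adjusted p = 0.00649). The HM and HetKO ranges of this last ratio overlapped.

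**Figure D3:**
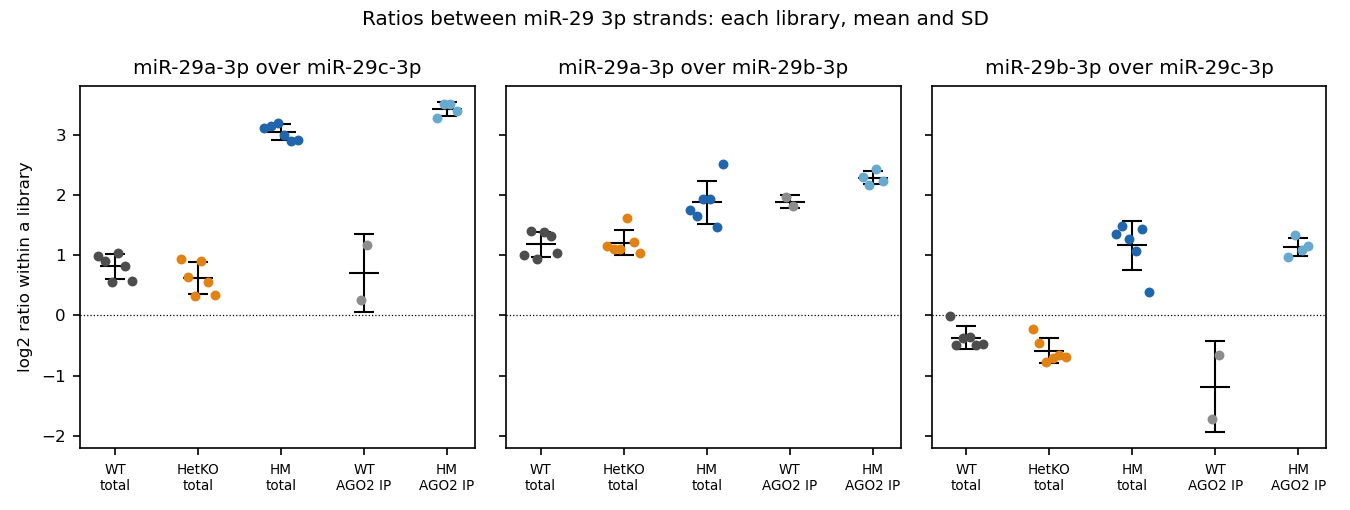
Log2 ratio between 2 miR-29 guides within a library (vertical axis) in each library of the 5 P19 groups (points, with the mean and SD). The ratio of miR-29b-3p over miR-29c-3p changed sign between WT or HetKO and HM in both assays.

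The family sum overlapped between the genotypes. The 3 guides together had a signal of 19162 ± 1499 in WT cells, 19038 ± 2373 in HetKO cells and 19507 ± 2220 in HM cells (SD, n = 6 each). They made up 3.80% ± 0.134 of the summed 3p-miRNA signal in WT cells, 4.05% ± 0.410 in HetKO cells and 4.08% ± 0.340 in HM cells. Within the family, miR-29a-3p took 49.7% ± 3.21 in WT cells, 47.9% ± 3.83 in HetKO cells and 71.5% ± 3.23 in HM cells. The share of miR-29c-3p was 28.3% ± 2.46, 31.3% ± 3.44 and 8.69% ± 0.877. The share of miR-29b-3p was 22.0% ± 2.07, 20.8% ± 1.79 and 19.8% ± 3.72.

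**Figure D4:**
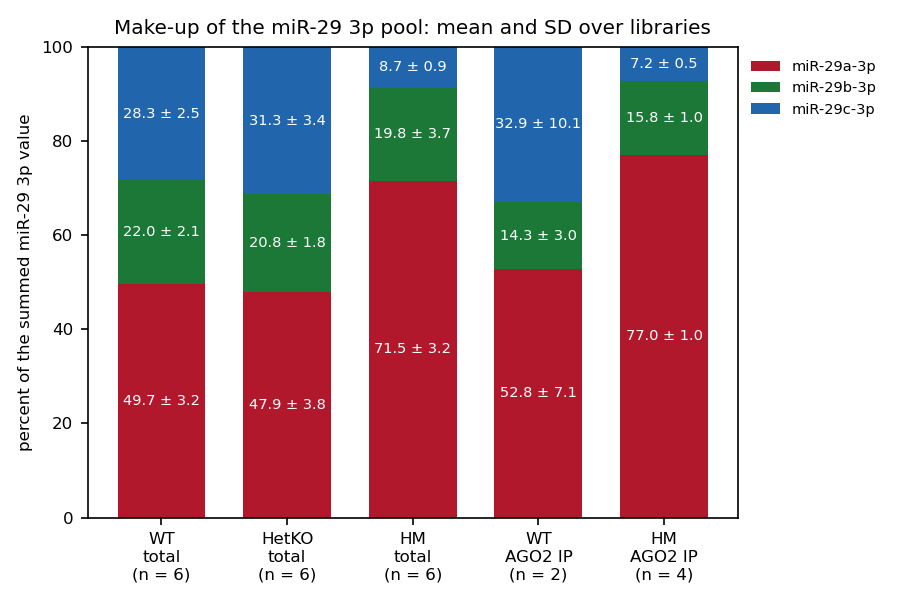
Percent of the summed miR-29 3p value (vertical axis, stacked bars from 0 to 100) that each guide took in total RNA and AGO2 IP of each genotype, with the mean and SD over libraries written in the bars. miR-29a-3p was 49.7% in WT and 71.5% in HM total RNA, and 52.8% and 77.0% in AGO2 IP, while the share of miR-29c-3p was 28.3% and 8.69% in total RNA.

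The 4 passenger strands were minor in WT and nearly gone in HM. In WT, miR-29c-5p had a signal of 30.3 ± 4.71, miR-29a-5p of 22.9 ± 3.84, miR-29b-1-5p of 14.7 ± 1.61 and miR-29b-2-5p of 6.30 ± 1.64 (SD, n = 6 each). In HetKO they had 36.4 ± 10.6, 20.9 ± 7.94, 15.8 ± 5.57 and 6.86 ± 2.42. The HetKO ranges held the WT ranges of all 4. The 5p strand was 0.246% ± 0.0690 of the miR-29a signal, 0.563% ± 0.114 of miR-29c and, with both 5p strands together, 0.502% ± 0.0694 of miR-29b in WT.

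In the 6 HM libraries together, miR-29a-5p had 5 reads against 385 in WT, miR-29b-1-5p had 4 against 244, miR-29b-2-5p had 1 against 103 and miR-29c-5p had 2 against 499. No HM library held more than 2 reads of any of them. With the value of a read taken into account, the HM level was 1.08% of WT for miR-29a-5p (exact conditional 95% interval 0.348 to 2.53%) and 1.36% for miR-29b-1-5p (0.367 to 3.52%). It was 0.805% for miR-29b-2-5p (0.0202 to 4.58%) and 0.332% for miR-29c-5p (0.0401 to 1.21%). These intervals overlap each other. A difference between the passengers in how far they fell was not tested. The intervals cover counting error only, as do all intervals here.

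limma called miR-29a-5p (log2 change -4.28, SE 0.17) and miR-29c-5p (-4.84, SE 0.16) lower in HM than in WT, with adjusted p = 2.03e-12 and 1.76e-13. Of the 180 5p-miRNAs tested, 98.9% were called lower, so this is the behaviour of nearly every 5p-miRNA that passed the filter. That filter uses the mean over both genotypes, so a strand high in WT alone can pass it. Both miR-29a-5p and miR-29c-5p passed only through their WT level, and miR-29b-1-5p and miR-29b-2-5p did not pass. On the log2(signal + 1) scale these changes understate the fall of a strand that begins at about 20 signal units. Against HetKO, miR-29a-5p and miR-29c-5p had log2 changes of -4.07 and -5.06, beside 98.2% called lower among the 5p-miRNAs that passed the filter there. Within a hairpin, 5p over 3p was lower in HM than in WT on the log2 scale (HM minus WT -4.83 for miR-29a and -3.16 for miR-29c, exact permutation p = 0.00216 and adjusted p = 0.00361 for both, n = 6 each). Both differences depend on the added 1, since miR-29a-5p was at 0 in 3 and miR-29c-5p in 5 of the 6 HM libraries.

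AGO2 IP asks which strands are loaded. miR-29a-3p had 6839 and 9445 RPM in WT and 27387, 30132, 26989 and 28737 RPM in HM, a log2 change of 1.82 (SE 0.20, limma adjusted p = 0.000125). miR-29b-3p had 1749 and 2679 RPM in WT and 5553, 6682, 5025 and 6079 RPM in HM, a log2 change of 1.42 (SE 0.24, limma adjusted p = 0.00122). miR-29c-3p had 5740 and 4211 RPM in WT and 2830, 2646, 2355 and 2744 RPM in HM, a log2 change of -0.90 (SE 0.20, limma adjusted p = 0.00466). None of the 3 guides overlapped between the genotypes.

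RPM is a share of a library's reads, and 5p-miRNAs made up 53.0% ± 0.868 of the 5p and 3p value in WT AGO2 IP and 1.60% ± 0.0321 in HM AGO2 IP. The background was high, with 54% of 467 miRNAs called higher and 37.3% lower, and 71.9% of guide 3p-miRNAs higher and 6.25% lower. miR-29a-3p and miR-29b-3p moved with most guides, whose median log2 change was 1.24. miR-29c-3p was 1 of 4 guide 3p-miRNAs called lower, with 62 guides above it. After centring on guide 3p-miRNAs, miR-29a-3p was higher by 0.58 (limma adjusted p = 0.0373), miR-29b-3p had 0.19 (limma adjusted p = 0.498) and miR-29c-3p had -2.13 (limma adjusted p = 0.000548).

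Among AGO2-bound guides the make-up of the family shifted as in total RNA. miR-29a-3p was 52.8% ± 7.13 of the miR-29 3p sum in WT (n = 2) and 77.0% ± 1.03 in HM (n = 4), and miR-29c-3p was 32.9% ± 10.1 and 7.19% ± 0.542. In log2 terms miR-29a-3p over miR-29c-3p was 0.71 ± 0.65 in WT and 3.42 ± 0.12 in HM, a difference of 2.71. That of miR-29b-3p over miR-29c-3p was -1.18 ± 0.75 in WT and 1.14 ± 0.15 in HM, and that of miR-29a-3p over miR-29b-3p was 1.89 ± 0.11 and 2.29 ± 0.11. No range overlapped, and each exact permutation test gave p = 0.0667 (adjusted p = 0.0667 over 5 tests), the smallest possible with 4 against 2 libraries, so these tests cannot pass 0.05. The 3 guides together made up 3.97% ± 0.337 of the summed 3p-miRNA value in WT AGO2 IP and 3.88% ± 0.236 in HM AGO2 IP.

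The passengers were also nearly absent from AGO2 in HM. miR-29c-5p had 26.9 and 30.9 RPM in WT and 0.655, 0.380, 0.620 and 0.570 RPM in HM, the HM level being 1.91% of WT by reads (exact conditional 95% interval 0.943 to 3.45%). miR-29a-5p had 11.4 and 20.9 RPM in WT and 0, 0.949, 1.65 and 0.759 RPM in HM, or 5.22% (2.99 to 8.55%). miR-29b-1-5p had 37 reads over the WT libraries and 6 over the HM libraries, and miR-29b-2-5p had 59 and 1. All 4 strands were under the filter on low values here and were not tested in the fit, in which 97.6% of 5p-miRNAs were called lower.

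The ratio of mean AGO2 IP RPM to mean total RNA signal describes how strongly a strand was recovered with AGO2, on a scale that is relative because the assays were normalised differently. In WT it was 0.854 for miR-29a-3p and 0.915 for miR-29c-3p, near the median of the 64 guide 3p-miRNAs (log2 ratio minus that median 0.0044 and 0.10). For miR-29b-3p it was 0.529, a log2 ratio minus the median of -0.69, and 6 of 64 guides lower. In HM all 3 guides lay under the median, with differences of -0.55 for miR-29a-3p, -0.99 for miR-29b-3p and -0.93 for miR-29c-3p. Of the 64 guides, 16, 7 and 9 were lower than them in that order. The SD of these log2 ratios, from both assays, was 0.37, 0.44 and 0.37 in WT and 0.16, 0.46 and 0.16 in HM.

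The pattern of each guide over the 18 total RNA libraries was compared with those of 417 other miRNAs by the root mean square difference in log2(signal + 1) relative to the own WT mean. Nearest to miR-29a-3p were miR-1191a (0.139), miR-423-3p (0.206) and miR-338-3p (0.223), against a median of 1.92 over all. Nearest to miR-29b-3p were miR-872-3p (0.163), miR-32-3p (0.219) and miR-302b-3p (0.226). Nearest to miR-29c-3p were miR-152-3p (0.293), miR-452-3p (0.307) and miR-140-3p (0.328). From miR-29a-3p, miR-29b-3p was at 0.472 (rank 47) and miR-29c-3p at 1.31 (rank 176). This measure is a description, and all points share their libraries.

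Other miRNAs known to act on DNA methyltransferases were read as a list of 4 guides, miR-148a-3p, miR-148b-3p, miR-152-3p and miR-143-3p. In HM vs WT total RNA limma called 0 of 4 higher and 3 lower, beside 12.5% higher and 48.4% lower among guide 3p-miRNAs, with a median log2 change of -0.92 beside -1.10 over all miRNAs and -0.40 over guide 3p-miRNAs. miR-152-3p had a signal of 9503 ± 1332 in WT and 3635 ± 1021 in HM (n = 6 each), and its log2 change was -1.42 (limma SE 0.20, adjusted p = 6.65e-06). miR-148a-3p had 11743 ± 963 in WT and 8931 ± 1468 in HM (-0.41, limma adjusted p = 0.0148), and miR-143-3p had 202.7 ± 153.2 and 45.9 ± 15.1 (-1.63, limma adjusted p = 0.0159). miR-148b-3p had 6246 ± 831 and 5896 ± 414 (-0.076, limma adjusted p = 0.599). After rescaling to the same total, miR-148a-3p and miR-148b-3p were higher (0.70 and 1.04), beside 195 of 414 miRNAs called higher, and miR-152-3p and miR-143-3p were not called. In HetKO vs WT 0 of 4 were higher and 1, miR-143-3p, was lower (-2.60, limma adjusted p = 0.00480), beside 20.3% of guide 3p-miRNAs called lower. In HM vs HetKO 1 was higher and 2 lower, beside 28.1% and 39.1% of guide 3p-miRNAs. In AGO2 IP 2 were higher, miR-148a-3p (1.06) and miR-148b-3p (1.10), and 0 lower, beside 71.9% of guide 3p-miRNAs called higher.

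In HEK293T cells the other RNase III domain was changed, and the arms of miR-29 behaved the other way around. With 1 library each (822285 reads with WT Dicer and 103661 with D1320A) no test was made. The deposited values are a score, in which 1 read was worth 234.1 with WT Dicer and 244.5 with D1320A. miR-29a-3p had a score of 718399 (3069 reads) with WT Dicer and 18337 (75 reads) with D1320A, 2.55% of the WT Dicer value (exact conditional 95% interval 2.00 to 3.21%). miR-29b-3p had 897238 (3833 reads) and 10513 (43 reads), or 1.17% (0.847 to 1.58%). The guide miR-29c-3p was not analysed here in HEK293T.

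The passenger strands changed far less on the same scale. miR-29c-5p had a score of 20131 (86 reads) with WT Dicer and 13692 (56 reads) with D1320A, or 68.0% (47.7 to 96.3%). miR-29a-5p had 11 and 18 reads (171%, 76.4 to 400.5%), miR-29b-1-5p had 7 and 4 (59.7%, 12.8 to 234.8%) and miR-29b-2-5p had 18 and 9 (52.2%, 20.7 to 122.4%). The intervals of these last 3 include no change. Of all miR-29a reads, 0.357% were 5p with WT Dicer and 19.4% with D1320A (Wilson 95% intervals 0.200 to 0.638% and 12.6 to 28.5%). Of miR-29b reads, 0.648% and 23.2% were 5p (0.439 to 0.955% and 14.1 to 35.8%). These shares do not depend on the scale. Over all miRNAs, the median log2 ratio of D1320A to WT Dicer was -7.31 for the 178 3p-miRNAs and -2.36 for the 171 5p-miRNAs with at least 10 reads with WT Dicer. With strands at 3 reads or fewer with D1320A set to 3 reads, which applied to 126 of the 3p-miRNAs and 28 of the 5p-miRNAs, the medians were -4.57 and -2.16, so the 3p median is not well measured at this depth. The log2 ratio of miR-29a-3p (-5.29) and that of miR-29b-3p (-6.42) lay between these 2 3p medians. With both libraries rescaled to the same total, the 3p strands were still lower (-2.37 and -3.49), whereas the 5p strands lay at 1.99 to 3.70 (interval of miR-29b-1-5p -0.039 to 4.16, those of the others above 0), so miR-29b-1-5p, miR-29b-2-5p and miR-29c-5p change sign with the scale and miR-29a-5p is above 0 on both.

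**Figure D5:**
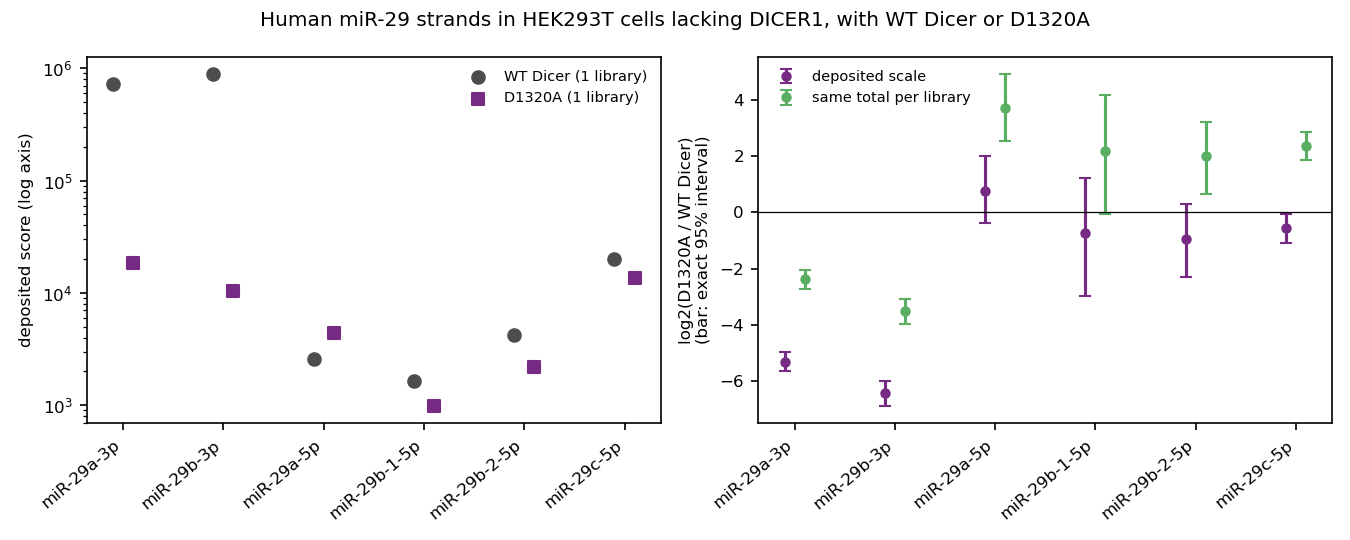
Left, deposited score (log axis) of the 6 human miR-29 strands with WT Dicer and with D1320A, 1 library each. Right, log2 ratio of D1320A to WT Dicer with its exact 95% interval for counting error, on the deposited scale and with the same total per library. The ratios of miR-29a-3p and miR-29b-3p were under 0 on both scales (-5.29 and -6.42 as deposited), and those of the 5p strands lay between -0.94 and 0.77 as deposited.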

How the data were processed

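Small RNA sequencing values of 26 libraries were used, grouped by the sample labels. The authors made QIAseq libraries and counted miRNAs with QuagmiR (genome build and miRNA database release not given in the sources used here). For total RNA the authors deposited a signal, reads divided by 1 spike-in factor per library, and for AGO2 IP the authors deposited RPM. For HEK293T the deposited column is called a score here, since its factor is not stated. Deposited floors of 0.01 (P19) and 1 (HEK293T) were read as 0. All values above the floor (15080, 5695 and 1275 in the 3 tables) were whole multiples of the value of 1 read within 0.02 reads, so reads were recovered by division. A count of 0 allows up to 3 reads, at most 1.22 signal units or 0.655 RPM. Reads are not independent molecules, so intervals cover counting error only.

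As in the study, miRNAs of a chromosome 12 cluster (2 names here) did not enter the fits. The paper reports that this cluster was silenced in the HM line, an effect it calls transcriptional and clonal. Guide strands made up over 70% of a duplex at a mean signal over 100 in WT. Groups were compared with limma 3.58.1 (R 4.3.3) after a log2(value + 1) transformation, two-sided, for names averaging 10 or more, with Benjamini-Hochberg adjustment over all of them and a threshold of 0.05, only the 2 groups entering each fit. Ratios were tested by exact permutation (two-sided, difference in means, 924 or 15 relabellings). Read ratios have exact conditional binomial intervals. The fit was first tested on simulated data. Other steps ran in Python 3.11.15 (matplotlib 3.10.9, scipy 1.17.1, numpy 2.4.6, pandas 2.3.3).

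All miR-29 names were described, with the 3 nearest miRNAs of each guide and a list of 4 miRNAs known to act on DNA methyltransferases. The members and lists were chosen with earlier results of these data known. Alternatives were other pseudocounts (0.1, 10), other minimum means (0, 100), rescaling, centring on guide 3p-miRNAs, a replicate block, averaging of replicates 1 and 4, 2 and 5, and 3 and 6, leaving out each library, and limma-voom on recovered reads, the last chosen after seeing the data.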

Additional observations from a re-analysis of the deposited data

Results flagged for a closer look

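In 48 sets of 4 to 6 libraries (a strand or a ratio in 1 group), 6 had 1 library far from the others by Dixon's criterion, where chance gives about 1 in 20. miR-29c-3p had 1441 in HM total RNA replicate 1 and 1690 to 1792 in the other 5. The log2 ratio of miR-29a-3p over miR-29b-3p was 1.61 in HetKO replicate 4 and 1.04 to 1.21 in the others. The log2 ratio of miR-29b-3p over miR-29c-3p was -0.011 in WT replicate 1 and -0.50 to -0.35 in the others. The remaining 3 rest on 1 or 2 reads, namely miR-29b-2-5p at 0.280 in HM total RNA replicate 6, miR-29c-5p at 0.573 in HM total RNA replicate 3 and miR-29b-2-5p at 0.190 RPM in HM AGO2 IP replicate 2, with 0 in all other libraries of these groups.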

How the results depend on the processing

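Calls in the HM comparisons kept their direction under each alternative that was run for miR-29a-3p and miR-29c-3p. Without a filter 5 strands were lower in HM vs WT total RNA, 5 in HM vs HetKO and 5 in AGO2 IP, since all 4 5p strands entered, and with a mean of at least 100 1 was lower in each total RNA comparison with HM, since none did. After rescaling 2 strands were higher in HM vs WT and 2 in HM vs HetKO, beside 195 of 414 and 200 of 398 miRNAs. The second strand was miR-29b-3p (0.96 and 0.95 against -0.15 and -0.056), and 2 strands were lower in AGO2 IP. Rescaling also turned miR-29a-3p to 0.034 and miR-29b-3p to 0.011 in HetKO vs WT. Centring gave 3 higher in HetKO vs WT, beside 156 miRNAs called higher there, and 1 higher in AGO2 IP, beside 144. It turned miR-29b-3p to 0.33 in HM vs WT, 0.077 against HetKO and 0.26 for HetKO vs WT. In HetKO vs WT it also turned miR-29a-3p to 0.28 and miR-29a-5p to 0.15. The cause was not tested. Leaving out 1 AGO2 IP library gave 1 to 2 lower strands, 2 without any 1 of the HM libraries, since miR-29c-5p then passed the filter, and 1 without either WT library. Leaving out 1 library moved the HetKO minus WT log2 ratio of miR-29a-3p over miR-29b-3p between -0.058 and 0.066, miR-29c-5p over miR-29c-3p between -0.021 and 0.19 and miR-29b-3p over miR-29c-3p between -0.29 and -0.15 (unadjusted exact permutation p = 0.0152 without HetKO replicate 1). It moved miR-29b-3p between -0.22 and 0.0041 in HM vs WT and between -0.13 and 0.097 against HetKO. For HetKO vs WT it moved miR-29a-3p between -0.13 and 0.011 and miR-29b-1-5p between -0.099 and 0.16. With the replicate number as a block, the HetKO minus WT log2 ratio of miR-29a-3p over miR-29c-3p was -0.20 with an unadjusted exact sign-flip p = 0.0313. It was lower in HetKO in 6 of 6 same-numbered pairs. The labels do not say that a number marks a shared culture or batch. Same-numbered deviations correlated at -0.46 to 0.28 between WT and HetKO and -0.14 to 0.31 between WT and HM. They correlated at 0.055 to 0.39 between HetKO and HM and 0.038 to 0.35 in AGO2 IP. Only 1 of 6 WT and 2 of 6 HetKO libraries correlated best with their own number in the other genotype. The numbers were therefore not taken to pair the libraries. A match with the partner number (1 with 4, 2 with 5, 3 with 6) was not looked for, so pairing by these sets is not excluded. The block left every count of calls as it was. limma-voom on recovered reads also left the counts as they were, as did averaging the replicate pairs in the 3 total RNA comparisons (not run in AGO2 IP). The count model planned for recovered reads was not run. With both assays rescaled, log2 AGO2 IP over total RNA in HM was 0.021, -0.40 and -0.35 for the guides.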

Other observations

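The 2 passengers of miR-29b took different shares in the 2 assays of WT cells. miR-29b-1-5p was 70.3% ± 6.02 of their sum in total RNA (range 60.0 to 76.4%, n = 6) and 38.0% ± 5.42 in AGO2 IP (34.1 and 41.8%, n = 2). The shares rest on 244 and 103 reads in total RNA and on 37 and 59 reads in AGO2 IP. The mean AGO2 IP value over the mean total RNA value was 0.180 for miR-29b-1-5p and 0.675 for miR-29b-2-5p in WT. For the other miR-29 passengers it was 0.706 (miR-29a-5p) and 0.953 (miR-29c-5p). Every one of the 64 guide 3p-miRNAs had a higher ratio than miR-29b-1-5p, but guides are an unlike reference for a passenger. Passenger 5p-miRNAs outside the family were not compared. In HetKO total RNA the share of miR-29b-1-5p was 69.6% ± 7.60 (n = 6). The difference between the assays was seen in the data and was not tested.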
